A study of Mus musculus with 18 samples.

Results

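The 10 genes described here are 5 EphA receptors (Epha2, Epha3, Epha4, Epha5 and Epha7) and 5 ephrin-A ligands (Efna1, Efna2, Efna3, Efna4 and Efna5), chosen by name among the 27179 genes of the stage and regional tables and the 35729 transcripts of the mutant table. RNA of FACS-sorted mouse motor neurons (MNs) was sequenced in 18 samples. There were 3 brachial, 3 thoracic and 3 lumbar samples at postnatal day 8 (P8), sorted by tdTomato that Cre from the Chat locus switches on, 3 samples of brachial Hoxc8 MNΔ embryos at E12.5, where Cre expressed from Olig2 in MN progenitors deletes Hoxc8, and 6 brachial samples at E12.5 labelled as wild type, the embryonic cells being sorted by Mnx1-GFP. For the comparison with Hoxc8 MNΔ, however, the paper describes controls with floxed Hoxc8. It names 3 replicates per stage for the stage comparison. Which of the 6 samples entered the stage or the mutant table is not given in the sources used here. The range of brachial segments taken also differed between these comparisons. Cords of several animals were pooled for a library, and both reporters also mark small populations of neurons that are not MNs.

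The measurement used is the base mean, the authors' average of normalized read counts over all libraries of a table. It carries no value per sample, so that no spread, interval or test can be attached to it, and the depth per sample is unknown. The 3 regional tables give the same base mean for every gene (0 of 27179 differed in the thoracic or the lumbar table) and stand here as 1 set of P8 levels. The stage table mixes E12.5 with the same P8 brachial samples, and the mutant table holds E12.5 samples of both genotypes. Levels of brachial, thoracic and lumbar MNs, or of Hoxc8 MNΔ and control MNs, are therefore not separated by the values used here.

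EphA receptors are tyrosine kinases of the cell surface, and ephrin-A ligands are anchored to the membrane of neighbouring cells by a lipid. Binding usually repels a growing axon, and signals can also run backwards into the ligand cell. In the limb-innervating MNs, Epha4 helps to steer axons of the lateral group into the dorsal limb, away from ephrin-A in ventral mesenchyme, while ephrin-A ligands on the motor axons themselves can mask their receptors.

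The sorted P8 samples held much RNA of other cells. The 6 oligodendrocyte markers made up 43.4% of the summed base means in the P8 regional tables, against 23.5% in the stage table, and 0.00722% in the mutant table. Of the 6 MN markers none was at 0, but their summed base mean was 206 in the P8 regional tables, against 3545 in the stage table, and relative to other genes 5 were lower and 1 higher at P8. The higher one, the choline transporter gene Slc5a7, had 165 in the P8 tables, against 210.1 in the stage table. Mnx1, a homeodomain gene whose regulatory sequence drove the embryonic reporter, stood at 0.696 in the P8 tables, and Chat, the acetylcholine synthesis gene, at 14.1. In the mutant table the MN markers summed to 5937 and the 4 markers of inhibitory interneurons to 17627. In these bulk samples, fewer cells of a type and less RNA per cell cannot be told apart.

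Of the 10 genes, 8 were lower and 2 higher in the P8 regional tables than in the stage table, all by over 2-fold. Because each table was normalized on its own, the log2 ratio of the 2 base means was centred on its median over the 13736 genes that reached a base mean of 10 in both (-0.78 before centring). The median of the 10 centred values was -2.89, between -5.64 for Efna3 and 1.23 for Epha2. Over 14832 genes the median was -0.05, 26.2% were lower and 15.3% higher by over 2-fold. The 6 MN markers had a centred median of -4.80, with 5 lower and 1 higher. Summed, the 4 inhibitory interneuron markers stood at 57.5 in the P8 tables, against 8673 in the stage table. The 3 of them with a ratio were all lower (median -6.82). The part of these changes in neuronal markers in the values of the 8 lower genes was not tested. For the 2 higher genes, Epha2 and Efna1, the 2-fold difference was lost without centring (0.45 and 0.30) and with shares of the summed base means (0.77 and 0.61). The stage table itself includes P8 brachial libraries and no thoracic or lumbar ones, so this is no ratio of 2 stages.

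**Figure D1:**
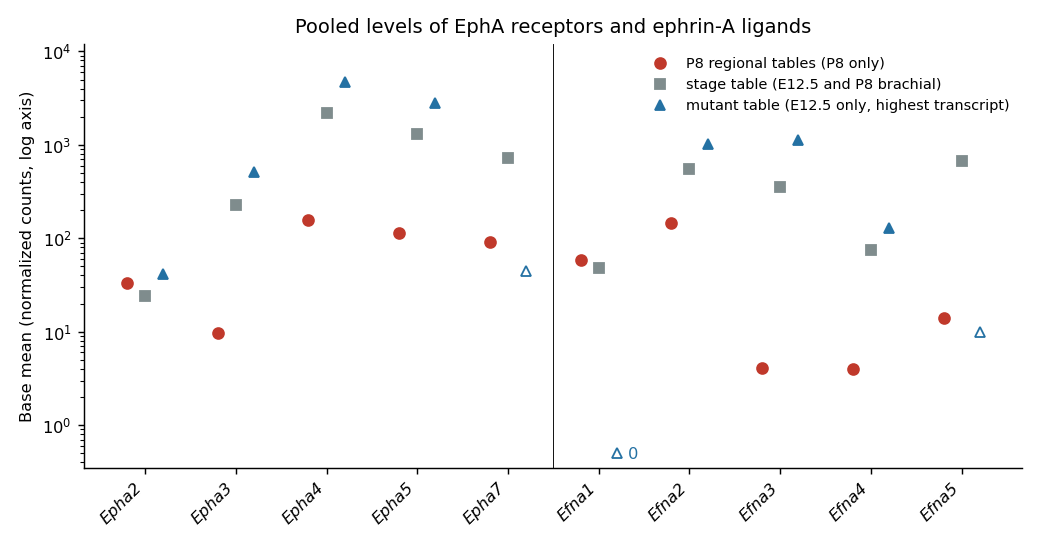
Base mean in normalized counts (vertical, log axis) of each receptor and ligand in the P8 regional tables (circles), the stage table (squares) and the mutant table (triangles). Open triangles mark genes with more than 1 listed transcript, and Efna1, at 0 there, is drawn at the lower edge. Efna3 had 4.13 in the P8 tables and 352 in the stage table, while Epha2 had 33.2 and 24.3 in the same tables.

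Among the 5 receptors, Epha4 (Entrez 13838, on chromosome 1 from 77367182 to 77515107 of GRCm38.p6) had the highest level per length in both kinds of table. Its base mean was 158 in the P8 regional tables, against 2187 in the stage table, a centred log2 ratio of -3.01. It ranked at percentile 58.0 of expressed genes at P8 and at percentile 90.9 in the stage table.

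Epha5, a receptor known from topographic mapping of retinal axons, had a base mean of 113 in the P8 tables, against 1321 in the stage table (centred log2 ratio -2.77). Epha7, which also has kinase-lacking isoforms, had 92.0 in the P8 tables, against 729 in the stage table (-2.21). Epha3, a receptor of the medial motor column whose axons innervate axial muscle, had 9.76 in the P8 tables, against 225 in the stage table (-3.75). These receptors were lower in the P8 tables by centred ratios of 4.62-fold (Epha7) to 13.4-fold (Epha3).

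Epha2 went the other way. This receptor is best known from epithelia and endothelium, and its base mean was 33.2 in the P8 tables, against 24.3 in the stage table (centred log2 ratio 1.23). Per kb of exon it was the lowest of the 5 receptors in the stage table (5.19), whereas at P8 it stood at 7.09 and Epha3 at 1.12. Of all genes, 89.3% had a ratio at or below that of Epha2.

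The ligands spread more widely than the receptors. Efna3 had 4.13 in the P8 regional tables, against 352 in the stage table, a centred ratio of -5.64 that 1.58% of all genes matched or undercut. Efna5 (Entrez 13640, on chromosome 17 from 62602957 to 62881317), a ligand that repels axons in the visual system and the limb, had 13.97 in the P8 tables, against 678 in the stage table (-4.82). For Efna4 the base means were 3.95 at P8 and 74.1 in the stage table (-3.45). Among expressed genes at P8 these 3 ligands stood low, at percentiles of 19.6 (Efna4), 19.9 (Efna3) and 28.2 (Efna5), while in the stage table they stood at 39.4 (Efna4), 58.9 (Efna3) and 71.0 (Efna5).

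Efna2 had the highest ligand level per length at P8. Its base mean was 144 in the P8 tables, against 546 in the stage table (centred log2 ratio -1.14). Efna1, first described as a gene induced by tumour necrosis factor in endothelial cells, was higher at P8, with 59.1 in the P8 tables, against 48.1 in the stage table (1.08). Epha2 and Efna1, a receptor and one of its ligands, were thus the pair that stood higher in the P8 tables. All 4 endothelial markers (centred median 1.37, summed base mean 1185 in the P8 tables and 756 in the stage table), 6 of 6 oligodendrocyte markers (1.59) and 5 of 5 microglia markers (1.73) were also higher there, and their part in the values of Epha2 and Efna1 was not tested.

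The smallest base mean above 0 in the P8 tables, about 1 read in 1 library, was 0.0405. The lowest member, Efna4, lay 97.6 times above it, so each of the 10 genes was detected at P8. Without values per library it cannot be said in how many of the 9 samples.

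**Figure D2:**
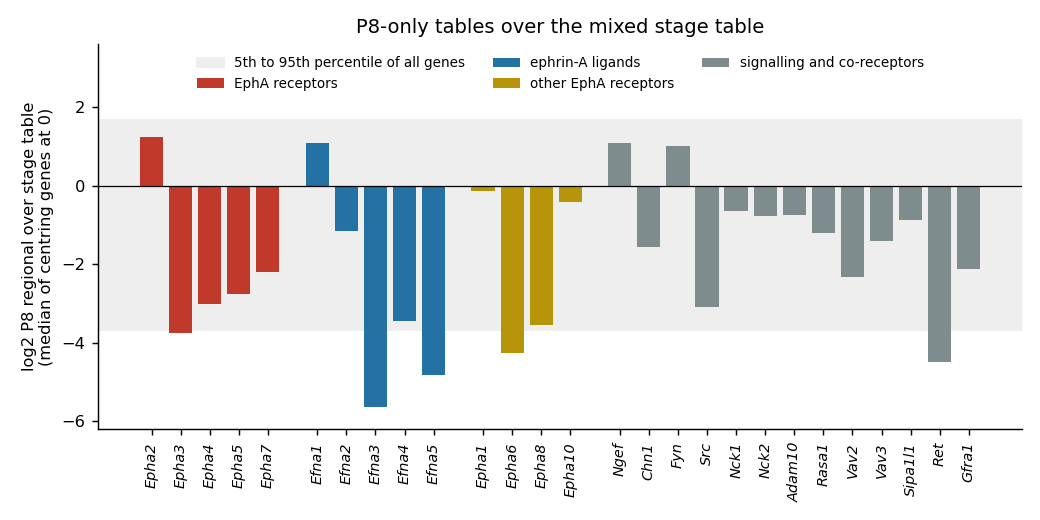
Log2 ratio of the base mean in the P8 regional tables over that in the stage table (vertical, median of the 13736 centring genes at 0) for each gene of 4 groups (bars, 1 pooled ratio each, no error available). The grey band spans the 5th to 95th percentile of all genes, -3.68 to 1.67. Epha3, Efna3, Efna5, Epha6 and Ret reach below it, and Epha2 and Efna1 lie above 0 within it.

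Levels of different genes were set side by side per kb of exon. At P8, Efna2 led with 67.6 base mean per kb, followed by Efna1 with 32.3 and Epha4 with 19.6, and Epha3 was lowest with 1.12. In the stage table Epha4 (272) and Efna2 (256) were the highest, followed by Efna5 (168) and Efna3 (145), and Epha2 (5.19) was the lowest. Efna1 had 26.3 per kb in the stage table, while Efna5 and Efna3 had 3.46 and 1.70 per kb at P8, so that the order of the genes differed between the tables. With no spread available, it is not known which neighbours in these orders differ.

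**Figure D3:**
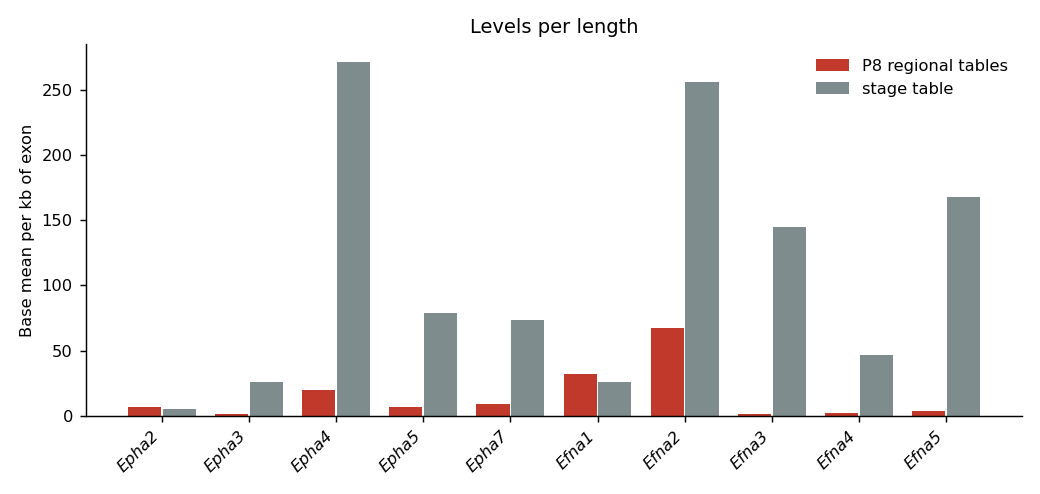
Base mean per kb of exon (vertical, linear axis from 0) of the 10 genes in the P8 regional tables (left bars) and the stage table (right bars). Efna2, at 67.6, and Efna1, at 32.3, are the tallest P8 bars.

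The mutant table allows a level from E12.5 samples alone, but only for genes with 1 listed transcript, as it counts reads per RefSeq transcript. Over 9664 genes with 1 transcript the median ratio of the mutant to the stage base mean was 1.37. With 2 transcripts it was 0.0114 over 2711 genes, and with 4 or more it was 0.00296. Counting programs commonly leave out reads that fall on more than 1 feature, and the setting used is not given in the sources used here. Its part in these ratios was not tested.

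Efna1, Efna5 and Epha7, the members with several listed transcripts, had low values of this kind. Both Efna1 transcripts were at 0, the Efna5 transcripts had 9.93 and 0, and the 3 of Epha7 had 44.7, 0.284 and 0. Their gene rows in the stage table held 48.1, 678 and 729. The mutant table is therefore no measure of these 3 genes. Summing the transcripts left Epha7 at 0.0617 and Efna5 at 0.0147 of the stage level.

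**Figure D4:**
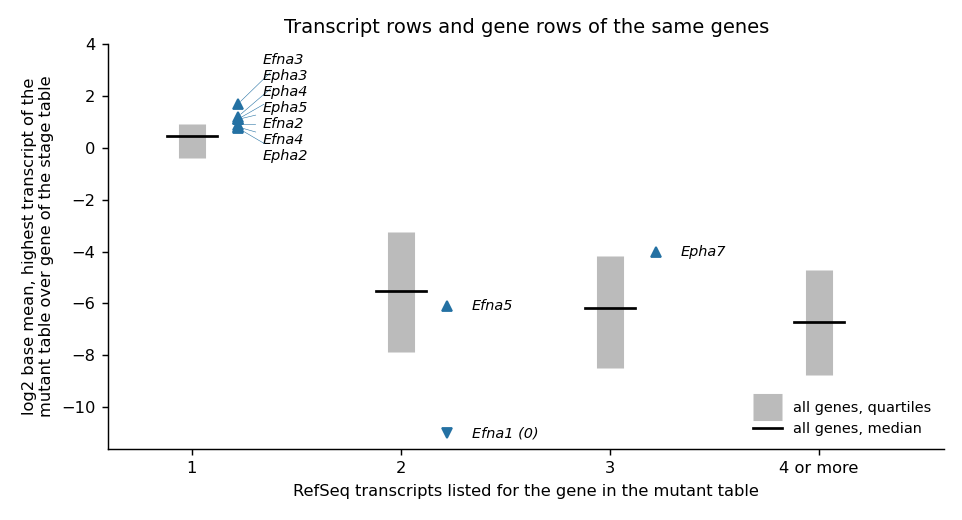
Log2 ratio of the base mean of a gene's highest transcript in the mutant table over its gene row in the stage table (vertical), by the number of listed transcripts (horizontal). Grey bars span the quartiles and black lines the medians of all genes above 0. The triangles are the 10 receptors and ligands, and Efna1, at 0, is drawn as an inverted triangle at the lower edge.

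For the other 7 genes, the P8 regional tables could be set against E12.5 samples alone. Of these, 6 were lower at P8 by over 2-fold after centring on 8029 genes with 1 transcript, against 32.6% of 9536 such genes, and the median was -3.64. Epha4 had 158 in the P8 tables, against 4697 in the mutant table (centred log2 ratio -3.64). Efna3 had 4.13 in the P8 tables, against 1132 in the mutant table (-6.85), and it was the 1 gene of the 7 below the 5th percentile of all 1-transcript genes (-4.56).

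Epha5 had 113 in the P8 tables and 2818 in the mutant table, and Epha3 had 9.76 in the P8 tables and 516 in the mutant table. For Efna2 the levels were 144 at P8 and 1009 in the mutant table, a smaller centred ratio of -1.56. Epha2 was again higher at P8 after centring (0.94), with 33.2 in the P8 tables and 41.1 in the mutant table, so that its direction rests on the centring. Since both genotypes enter the mutant mean, these are levels of a mixture of Hoxc8 MNΔ and control MNs. The P8 mean also covers thoracic and lumbar samples, whereas the E12.5 samples were brachial, and the sorting reporters differed. The cell content differed as well. MN markers summed to 206 in the P8 tables and 5937 in the mutant table, and inhibitory interneuron markers to 57.5 and 17627. Oligodendrocyte markers made up 43.4% of the P8 sum. Age, region, reporter and cell content therefore cannot be told apart in these ratios.

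Of the EphA receptors beyond the 10 genes, Epha6 and Epha8 resembled Epha3. Epha6 had 3.99 in the P8 tables, against 131 in the stage table (-4.26), and Epha8 had 7.14 in the P8 tables, against 143 in the stage table (-3.54). Epha10, a pseudokinase receptor, had 293 in the P8 tables, against 672 in the stage table (-0.42). Epha1 had 16.8 in the P8 tables and 31.8 in the stage table (-0.15), but 9.62 in the E12.5-only mutant table.

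Genes that act with EphA receptors were listed as well. Of 13, 11 were lower and 2 higher in the P8 tables after centring, with a median of -1.21. Lower by over 2-fold were 7 of the 13 and higher 2, against 26.2% and 15.3% of all genes. Ret, the GDNF receptor kinase that cooperates with Epha4 in dorsal limb guidance, was the lowest with 19.0 in the P8 tables, against 725 in the stage table (-4.48). Its co-receptor Gfra1 had 357 in the P8 tables, against 2651 in the stage table (-2.11). Ngef, which encodes the exchange factor ephexin that EphA receptors activate, was the highest with 96.3 in the P8 tables, against 77.5 in the stage table (1.09). Fyn, a Src-family kinase also known from oligodendrocytes, had 8711 in the P8 tables, against 7422 in the stage table (1.01). Without centring, Ngef and Fyn stood at 0.31 and 0.23, so that neither was then higher by over 2-fold.

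Efna1, Efna3 and Efna4 lie close together on chromosome 3, within 66.3 kb from 89271730 to 89338028 of GRCm38.p6 and on the same strand, yet Efna1 was higher and the other ligands lower in the P8 tables. Their upstream sequences are shown for this contrast between neighbours, as the 250 bases before a RefSeq start, 5′ to 3′, with CG dinucleotides in capitals. They span chr3:89279646-89279895, chr3:89322940-89323189 and chr3:89338029-89338278, all on the minus strand. RefSeq lists 2 starts each for Efna1 and Efna3. The window of Efna1 precedes the inner start and lies within the span of the gene, whereas those of Efna3 and Efna4 lie outside the gene.
Efna1: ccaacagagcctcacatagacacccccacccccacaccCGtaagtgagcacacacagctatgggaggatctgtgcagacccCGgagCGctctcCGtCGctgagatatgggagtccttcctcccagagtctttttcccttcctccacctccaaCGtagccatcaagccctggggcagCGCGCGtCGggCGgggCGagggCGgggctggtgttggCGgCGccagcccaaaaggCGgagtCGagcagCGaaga
Efna3: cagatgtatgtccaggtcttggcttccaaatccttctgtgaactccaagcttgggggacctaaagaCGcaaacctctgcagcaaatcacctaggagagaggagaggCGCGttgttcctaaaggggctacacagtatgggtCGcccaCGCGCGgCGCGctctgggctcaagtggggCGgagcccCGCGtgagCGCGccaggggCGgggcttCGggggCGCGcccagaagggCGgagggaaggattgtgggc
Efna4: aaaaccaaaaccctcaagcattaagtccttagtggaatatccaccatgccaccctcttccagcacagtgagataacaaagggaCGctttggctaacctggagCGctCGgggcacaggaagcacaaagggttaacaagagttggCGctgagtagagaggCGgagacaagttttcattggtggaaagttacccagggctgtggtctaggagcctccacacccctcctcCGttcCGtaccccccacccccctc

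The windows held 18 CG dinucleotides at Efna1, 19 at Efna3 and 7 at Efna4. Whether the CG count goes with the level ratios was not tested. In windows of 300 bases around the start (250 before and 50 after), the median of 32851 RefSeq promoters was 7, and each of the 10 genes exceeded it, from 10 at Epha2 to 38 at Efna5. The Hox-Pbx motif TGATTNAT, searched on both strands, was in none of the 10 windows and in 3.22% of all promoters. The homeodomain motif TAATTA occurred among the 10 windows in that of Epha5 alone, though also in the window of the outer Efna1 start, and in 5.29% of all promoters, and TATAAA in none of the 10 and in 13.6%. These letter matches are a description of the windows only.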

How the data were processed

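RNA-Seq of sorted MNs had been processed by the authors, who aligned unique reads to GRCm38/mm10 with HISAT, took counts from featureCounts and ran DESeq2 on Galaxy, and no versions, annotation release or count filter are given in the sources used here. The 5 deposited tables hold the base mean, a signal per gene (per transcript in the mutant table) that the authors made by dividing read counts by size factors and averaging over all libraries of a table. They further hold fold changes, standard errors, Wald statistics and p-values of the authors' own comparisons, which were not used. No test was therefore possible, and all values are descriptions.

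Entrez and RefSeq identifiers were matched to symbols of the RefSeq GRCm38.p6 annotation (93.0% of genes, 99.2% of transcripts), all 10 genes among them. Where a symbol had several transcripts the highest base mean was used. Percentiles are over genes with a base mean above 0. Ratios between tables were centred on the median over genes that reached a base mean of 10 in both, and a 2-fold difference was counted against genes whose 2 base means average at least 10. Exon lengths are unions of GENCODE M21 exons, which may differ from the annotation of the authors. Of several RefSeq starts, the promoter nearest to a GENCODE start was taken. The genes named are the 10 genes, the other EphA genes, and the highest, the lowest and some further members of a list of partners. Members and lists were chosen with earlier results of these data known. Markers of sensory neurons (3 of 4 matched) summed to a base mean of 2.66 in the P8 tables and 243 in the stage table, and those of astrocytes (5 of 5) to 4386 in the P8 tables and 3602 in the stage table. The ratio and the percentile were tested on simulated data. Python 3.11.15, numpy 2.4.6, pandas 2.3.3 and matplotlib 3.10.9 were used.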

Additional observations from a re-analysis of the deposited data

How the results depend on the processing

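All 10 directions in the P8 regional over the stage table held without centring, with shares of the summed base means, and with centring on genes above 0 or of at least 100 in base mean. Without centring the median of the 10 genes was -3.67 in place of -2.89, and Epha2 and Efna1 stood at 0.45 and 0.30. With shares of the summed base means they stood at 0.77 and 0.61, so that neither was higher by over 2-fold under these 2 scalings. Against the E12.5-only mutant table, an alternative chosen after seeing the data, the median of 7 genes was -3.64. It covers fewer genes than the median of -2.89. For 4 of the 7 genes the value moved by over 1.5 times and for 3 it did not, with no direction reversed. Epha4, for example, stood at -3.64 there and at -3.01 against the stage table. The thoracic and lumbar tables gave the same values as the brachial one. The median percentile of the 10 genes in the P8 tables was 39.0 among genes above 0 and 17.9 among genes that reach a base mean of 10. No paired analysis was possible because the tables hold no values per sample, and for the same reason no replicate could be left out. No value has a measured error, so a difference between tables was not weighed against the spread of replicates.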
